A study of Mus musculus with 6 samples.

Results

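The transcription factors of the Snail, Twist, Zeb, Prrx and Runx families were followed by RNA-seq in EGFP+ cells of the mouse heart, 10 genes taken by symbol from a table of 28987: *Snai1*, *Snai2*, *Twist1*, *Twist2*, *Zeb1*, *Zeb2*, *Prrx1*, *Prrx2*, *Runx1* and *Runx2*. All 10 were in the table. All 10 were also tested, since each averaged 1 or more in the linear unit across the 6 libraries, as 15109 genes did in all. Every mouse carried a MerCreMer cDNA knocked into the *Postn* locus and an eGFP reporter in the Rosa26 locus that Cre switches on, received tamoxifen (by injection at 100 mg/kg and in chow at 40 mg/kg according to the labels, with other doses in the study's methods), and underwent transverse aortic constriction (TAC, a pressure overload of the heart) at 8 to 10 weeks of age. Cells were sorted by eGFP fluorescence 4 weeks after TAC, and 3 libraries came from control mice and 3 from mice that also carried Hsp47 flox/flox alleles (Hsp47-deleted). *Hsp47* encodes a collagen chaperone and is listed as *Serpinh1*. Recombination in this model is driven by the *Postn* locus, and tamoxifen chow was fed until the end of the experiment, so the cells studied are those that had *Postn* switched on while tamoxifen was given. The labels do not say whether a library came from 1 mouse or from a pool, so p-values measure the spread between these libraries, whatever its source.

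The targeted gene, *Serpinh1*, had log2 levels of 6.28 and 6.10 in the first 2 control libraries (replicates 3 and 4), 7.60 in the other (replicate 2), and 6.87, 6.67 and 6.66 in Hsp47-deleted replicates 1, 2 and 3. Libraries labelled Hsp47-deleted were below the control of their own run and above the controls of the other, and the groups differed by 0.072 (standard error 0.43, limma, p adjusted by the Benjamini-Hochberg (BH) method over all tested genes = 0.947). The study's genotyping recognises a single floxed exon and the table gives 1 value for the whole gene, so this row is a limited check. By Western blotting, the study reported that Hsp47 protein was efficiently lost from sorted EGFP+ myofibroblasts of this model. Hsp47-deleted stands for the label wherever a direction is given.

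The question was whether these factors differ in activated fibroblasts with and without Hsp47. None of the 10 passed the test between the groups (limma) at a BH-adjusted p under 0.05, where 0.245% of all tested genes did (0.232% with the higher mean and 0.0132% with the lower mean under the Hsp47-deleted label). At an unadjusted limma p under 0.05 there was 1 (*Twist1*), beside 15.2% of all tested genes. Of the 10, 7 had a higher mean in the libraries labelled Hsp47-deleted and the others a lower one. The median log2 difference over all tested genes was itself above 0, at 0.35. The controls came from different sequencing runs, replicates 3 and 4 from the first and replicate 2 from the second, in which all 3 Hsp47-deleted libraries were also sequenced. Control replicate 2 lay outside the range of control replicates 3 and 4 at all 10 members. The share of all tested genes at which it did so was not counted, so this is not read as a trait of the members. At 9 of 10 control replicate 2 lay nearer to the Hsp47-deleted mean than to the mean of the other controls, as it did at 68.4% of all tested genes. For the members each pooled difference is therefore followed by the difference within the second run, with its standard error from a limma fit that has sequencing run as a covariate. That run holds 1 control, so the error is estimated with the help of the first-run controls and assumes that the lone control varies like the other libraries. In this fit the BH-adjusted limma p of the members ran from 0.716 to 0.968.

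These proteins are DNA-binding regulators of the mesenchymal state. Snail and Zeb proteins are zinc-finger repressors that bind E-boxes, among them those of the E-cadherin gene. Twist proteins are basic helix-loop-helix factors that pair with E proteins. Prrx proteins carry a paired-type homeodomain and mark embryonic limb and craniofacial mesenchyme. Runx proteins bind DNA through the Runt domain together with Cbfb, *Runx1* being known best from blood formation and *Runx2* from bone. Such factors act when epicardial and endocardial cells of the embryonic heart become mesenchymal, and fibroblasts of the adult heart are already mesenchymal cells.

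Promoter sequence (RefSeq, GRCm38.p6, windows of 300 bases from 250 before to 50 after a transcript start) was at hand for 8 of the 10 genes, in 12 windows. The windows of *Snai1*, *Twist1* and *Prrx2*, the members that differed most upward between the control runs, held 70%, 66% and 70.3% G and C. *Runx1*, which differed most downward, has a window at 45% and another at 69%, and the window of *Twist2* was at 64.7%. That of *Prrx1*, the member with the narrowest range over the libraries, was at 47.7%. The windows of *Zeb2*, next after *Runx1* in the downward direction, were at 49.3% to 60.7%, and that of *Runx2* was at 45.3%. The 100 bases before the start are shown for *Snai1*, *Twist1* and *Prrx2*, and for *Prrx1* beside them, with every CG in capitals. They are chr2:167538095-167538194 (plus strand) for *Snai1*, chr12:33957571-33957670 (plus) for *Twist1*, chr2:30845267-30845366 (plus) for *Prrx2* and chr1:163313651-163313750 (minus) for *Prrx1*.
Snai1: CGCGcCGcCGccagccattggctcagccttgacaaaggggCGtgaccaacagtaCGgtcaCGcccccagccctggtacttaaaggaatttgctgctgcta
Twist1: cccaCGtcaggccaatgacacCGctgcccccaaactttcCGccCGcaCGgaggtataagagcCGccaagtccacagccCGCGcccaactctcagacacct
Prrx2: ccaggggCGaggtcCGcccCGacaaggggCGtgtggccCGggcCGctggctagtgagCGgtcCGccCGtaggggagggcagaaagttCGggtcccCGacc
Prrx1: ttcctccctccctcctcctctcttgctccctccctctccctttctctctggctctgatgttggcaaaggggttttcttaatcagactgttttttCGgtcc

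The stretch of *Snai1* holds 7 CG pairs, that of *Twist1* 8, that of *Prrx2* 11 and that of *Prrx1* 1. The E-box form bound by Snail and Zeb proteins, CACCTG on either strand, was found in the window of *Snai1* and in 1 of the 2 windows of *Runx1*, and in 20.2% of the 32851 promoters of the same length. The matches are shown with 20 bases on each side and the motif in capitals, from chr2:167538049-167538094 (plus strand) for *Snai1* and chr16:92826185-92826230 (minus) for *Runx1*. The motif begins 126 bases before the start of *Snai1* and 136 before that of *Runx1*.
Snai1: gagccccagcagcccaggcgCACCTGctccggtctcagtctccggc
Runx1: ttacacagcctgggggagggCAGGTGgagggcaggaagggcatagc

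The Runx motif, AACCACA on either strand, was found in 5.27% of promoters. Of the family members, the same *Runx1* window held it 2 times and the *Runx2* window 3 times. Both windows share the run of 22 bases shown here, with the motif in capitals, at chr16:92826030-92826051 (minus strand) in *Runx1*, beginning 23 bases after the start, and at chr17:44814588-44814609 (minus) in *Runx2*, beginning 18 bases after it.
Runx1 and Runx2: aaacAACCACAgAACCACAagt

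The looser E-box CANNTG, which includes the CACCTG matches, was in 72.3% of promoters and in the windows of 3 members (*Snai1*, *Runx1* and *Runx2*). The homeodomain core TAATTA was in 5.29% of promoters and in that of *Prrx1*. These matches describe letters and not binding.

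The deposited values are log2(value + 1), and the low values of genes with 1 transcript fall in steps that scale with the inverse of transcript length, so levels were compared between genes as values per length. By the mean of the log2 value over all 6 libraries (± SD, n = 6), the Zeb factors stood highest, *Zeb1* at 6.99 ± 0.36 and *Zeb2* at 6.65 ± 0.71. *Zeb1* exceeded 96.1% of the tested genes in level and *Zeb2* 94.8%. *Runx1* followed at 5.75 ± 1.23, then *Snai2* (4.76 ± 0.29), *Prrx1* (4.70 ± 0.20) and *Runx2* (4.44 ± 0.53). The lowest levels were those of *Twist1* (3.14 ± 0.73), *Snai1* (2.58 ± 1.18), *Prrx2* (2.52 ± 0.91) and *Twist2* (1.70 ± 0.45), the last above 20.3% of tested genes. Of the 9 neighbouring pairs in this order, *Runx2* above *Twist1* was the single one that held in all 6 libraries, with a mean difference of 1.31 ± 0.93. *Snai2* and *Prrx1* could not be ordered (*Snai2* higher in 2 of 6 libraries), nor could *Snai1* and *Prrx2* (*Snai1* higher in 3 of 6).

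**Figure D1:**
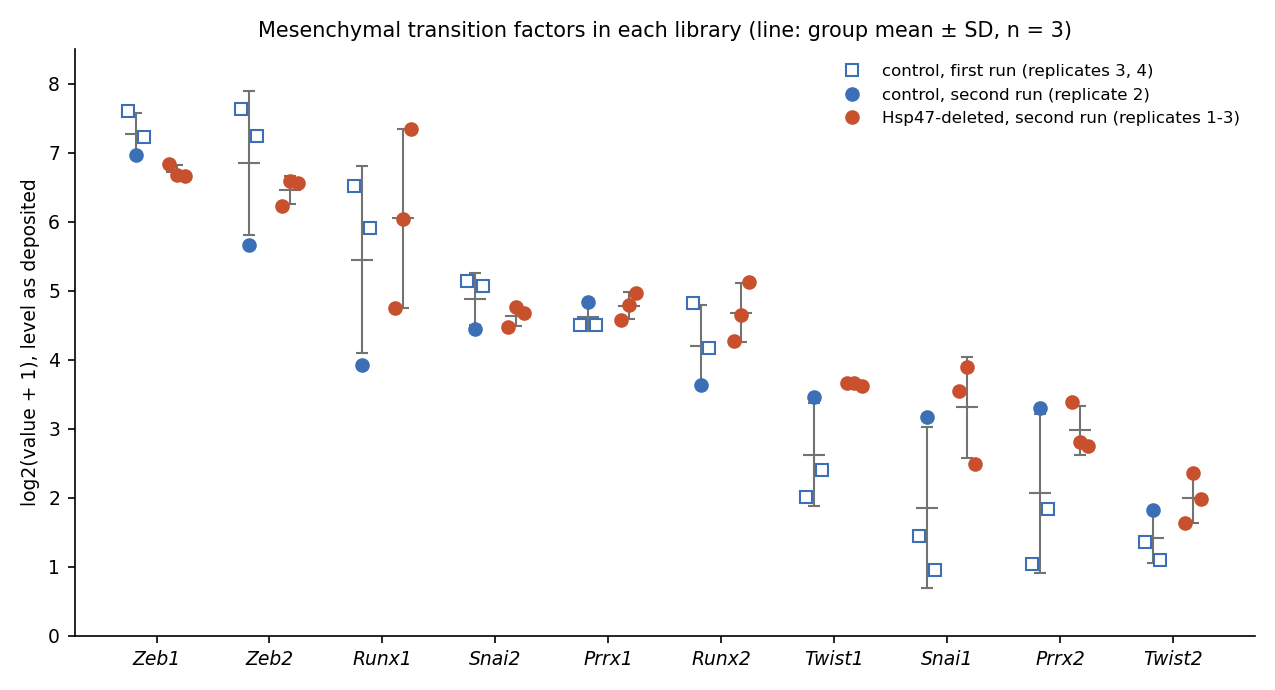
Level of each factor, as the deposited log2(value + 1), in each library (open squares, control replicates 3 and 4 of the first run; blue circles, control replicate 2; red circles, the 3 Hsp47-deleted libraries of the second run), with the group mean ± SD (n = 3) in grey and genes ordered by mean level. *Zeb1* and *Zeb2* stand highest and *Twist2* lowest, and at *Zeb2*, *Runx1*, *Twist1*, *Snai1* and *Prrx2* the control of the second run lies over 1 away from the mean of the other controls.

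*Snai1*, the Snail factor induced early in epithelial-mesenchymal transitions (ENSMUSG00000042821, chr2:167538195-167542814, plus strand, GRCm38), had log2 levels of 0.95 and 1.44 in control replicates 3 and 4, 3.17 in control replicate 2, and 3.54, 3.90 and 2.48 in Hsp47-deleted replicates 1, 2 and 3. High values were those of the second run, and the groups overlapped. The control mean was 1.85 ± 1.17 and the Hsp47-deleted mean 3.31 ± 0.74 (SD, n = 3 each), a log2 difference of 1.45 (standard error 0.64, limma, BH-adjusted p = 0.331; exact two-sided permutation p = 0.2). Against control replicate 2 alone the difference was 0.14 (standard error 0.59). With control replicate 2 left out, so that run and label coincide and cannot be told apart, it was 2.11 (limma, BH-adjusted p = 0.0254). From the steps in the low values, *Snai1* rested on an estimated 22 and 33 reads in control replicates 3 and 4 and 248 in control replicate 2, and on 119 to 331 in the Hsp47-deleted libraries.

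*Snai2* (Slug, ENSMUSG00000022676, chr16:14705852-14709385, plus strand), the more abundant Snail factor in every library, had log2 levels of 5.06 and 5.13 in control replicates 3 and 4, 4.45 in control replicate 2, and 4.47, 4.77 and 4.67 in Hsp47-deleted replicates 1, 2 and 3. Its second-run control was the lowest library and below the other controls, whereas at *Snai1* it was above them. The means were 4.88 ± 0.38 and 4.64 ± 0.15 (SD, n = 3 each), a difference of -0.25 (standard error 0.31, limma, BH-adjusted p = 0.714). Within the second run it was 0.19 (standard error 0.34), and with 1 library left out it ranged from -0.46 (without control replicate 2) to -0.12 (without control replicate 4). Its estimated reads ran from 686 to 1012 per library.

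*Twist1* (ENSMUSG00000035799, chr12:33957671-33959829, plus strand) had the smallest p of the family members. Its log2 levels were 2.40 and 2.01 in control replicates 3 and 4, 3.45 in control replicate 2, and 3.66, 3.66 and 3.62 in Hsp47-deleted replicates 1, 2 and 3. Hsp47-deleted libraries were all above the controls and close to each other, while the second-run control lay closer to them than to the other controls. The means were 2.62 ± 0.74 and 3.65 ± 0.024 (SD, n = 3 each), a difference of 1.02 (standard error 0.41). The unadjusted limma p was 0.0386 and the BH-adjusted p 0.315, and the exact two-sided permutation p was 0.10, the smallest that 3 libraries against 3 can give. Such a lack of overlap was found at 19.8% of all tested genes, and at 18.3% in this direction. Within the second run *Twist1* differed by 0.19 (standard error 0.37). Without control replicate 2 the difference was 1.44 (limma, BH-adjusted p = 0.02), again with run and label coinciding. The estimated reads were 104, 59 and 310 in control replicates 3, 4 and 2 and 279 to 294 in the Hsp47-deleted libraries.

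*Twist2* (Dermo1, ENSMUSG00000007805, chr1:91801461-91848028, plus strand) had log2 levels of 1.09 and 1.35 in control replicates 3 and 4, 1.82 in control replicate 2, and 1.63, 2.35 and 1.98 in Hsp47-deleted replicates 1, 2 and 3. Its runs were ordered as those of *Twist1*, at a lower level and with overlapping groups. The groups differed by 0.57 (standard error 0.36, limma, BH-adjusted p = 0.457). Against control replicate 2 the value was 0.17 (standard error 0.44).

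*Zeb1* (ENSMUSG00000024238, chromosome 18) was the other of 2 members without overlap between the groups, in the opposite direction from *Twist1*. Its log2 levels were 7.23 and 7.60 in control replicates 3 and 4, 6.97 in control replicate 2, and 6.83, 6.67 and 6.66 in Hsp47-deleted replicates 1, 2 and 3. All 3 libraries labelled Hsp47-deleted were below every control, the second-run control included, which was the lowest of the controls. The means were 7.27 ± 0.32 and 6.72 ± 0.094 (SD, n = 3 each), a difference of -0.54 (standard error 0.29, limma, BH-adjusted p = 0.39; exact two-sided permutation p = 0.10). A lack of overlap in this direction was found at 1.5% of tested genes, and an unadjusted p under 0.05 in this direction, which *Zeb1* did not reach, at 0.755%. Against control replicate 2 the difference was -0.25 (standard error 0.32). *Zeb1* was the only member with all 3 Hsp47-deleted libraries below control replicate 2. Another 5 members had all 3 above it, and 58.4% of tested genes had them all on one side.

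*Zeb2* (Sip1, ENSMUSG00000026872, chr2:44983632-45117395, minus strand) stood level with *Zeb1* in the first-run controls and was far below it in the second-run control. Its log2 levels were 7.25 and 7.64 in control replicates 3 and 4, 5.66 in control replicate 2, and 6.22, 6.59 and 6.56 in Hsp47-deleted replicates 1, 2 and 3. Its second-run control was the lowest library and the first-run controls the highest, with the Hsp47-deleted libraries between them. The pooled difference was -0.39 (standard error 0.51, limma, BH-adjusted p = 0.723). Within the second run it was 0.79. With sequencing run as a covariate, which gives the same 0.79, the standard error was 0.34 and the BH-adjusted limma p 0.732. Without control replicate 2 the difference was -0.99 (limma, BH-adjusted p = 0.0456), so the sign of the *Zeb2* difference depended on which controls were used.

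*Prrx1* (ENSMUSG00000026586, chr1:163245119-163313710, minus strand) was the steadiest member. Its log2 levels were 4.50 and 4.50 in control replicates 3 and 4, 4.84 in control replicate 2, and 4.58, 4.80 and 4.97 in Hsp47-deleted replicates 1, 2 and 3. Highest and lowest library lay 0.47 apart, and the groups overlapped. The difference was 0.17 (standard error 0.28, limma, BH-adjusted p = 0.787), -0.063 (standard error 0.35) against control replicate 2, and -0.25 once each library was centred on its median, so it had no direction of its own.

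*Prrx2* (ENSMUSG00000039476, chr2:30834972-30881251, plus strand) had log2 levels of 1.84 and 1.04 in control replicates 3 and 4, 3.30 in control replicate 2, and 3.39, 2.80 and 2.75 in Hsp47-deleted replicates 1, 2 and 3. As at *Snai1* and *Twist1*, the 4 libraries of the second run stood together above those of the first. The pooled difference was 0.92 (standard error 0.57, limma, BH-adjusted p = 0.448). The second-run value was -0.33 (standard error 0.48). Without control replicate 2, *Prrx2* differed by 1.54 (limma, BH-adjusted p = 0.0358), with run and label coinciding, and without control replicate 4 by 0.41.

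*Runx1* (ENSMUSG00000022952, chr16:92601466-92826149, minus strand) had the widest range of log2 levels among the members. Its log2 levels were 5.91 and 6.52 in control replicates 3 and 4, 3.93 in control replicate 2, and 4.75, 6.04 and 7.35 in Hsp47-deleted replicates 1, 2 and 3, or 14.2 to 162.0 in the linear unit. In the linear unit its highest library was 11.4 times the lowest, a ratio that *Snai1* exceeded. Libraries of both groups were high and low, and the Hsp47-deleted replicates alone spanned most of the range. The means were 5.45 ± 1.36 and 6.05 ± 1.30 (SD, n = 3 each), a difference of 0.60 (standard error 0.82, limma, BH-adjusted p = 0.739). All 3 Hsp47-deleted libraries were above control replicate 2, by 2.12 on average (standard error 0.86). With sequencing run as a covariate, *Runx1* was the 1 member at an unadjusted limma p under 0.05 (BH-adjusted p = 0.716), a level reached by 6.73% of all tested genes. At the BH threshold that fit called 0 of the members and 0.331% of genes. Leaving out control replicate 2 turned the difference to -0.17, and leaving out Hsp47-deleted replicate 3 to -0.055.

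*Runx2* (ENSMUSG00000039153, chr17:44495987-44814797, minus strand) is the regulator of osteoblast differentiation. Its log2 levels were 4.17 and 4.82 in control replicates 3 and 4, 3.63 in control replicate 2, and 4.27, 4.65 and 5.13 in Hsp47-deleted replicates 1, 2 and 3. Both Runx genes were lowest in control replicate 2 and highest in Hsp47-deleted replicate 3. The groups differed by 0.48 (standard error 0.40, limma, BH-adjusted p = 0.564). Within the second run the value was 1.06 (standard error 0.46, limma, BH-adjusted p = 0.732). With 1 library left out the difference was 0.19 without control replicate 2, 0.26 without Hsp47-deleted replicate 3 and 0.79 without control replicate 4.

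*Twist2*, *Zeb1*, *Zeb2*, *Prrx1*, *Runx1* and *Runx2* lie in spans that overlap annotated genes on the opposite strand, among them *Zeb2os*, *Supt3* and *Runx2os1*. Whether counting used strand is not given in the sources used here and whether exons are shared was not tested, so the values of these 6 genes carry that uncertainty. *Snai1*, *Snai2*, *Twist1* and *Prrx2* overlap no other annotated gene.

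**Figure D2:**
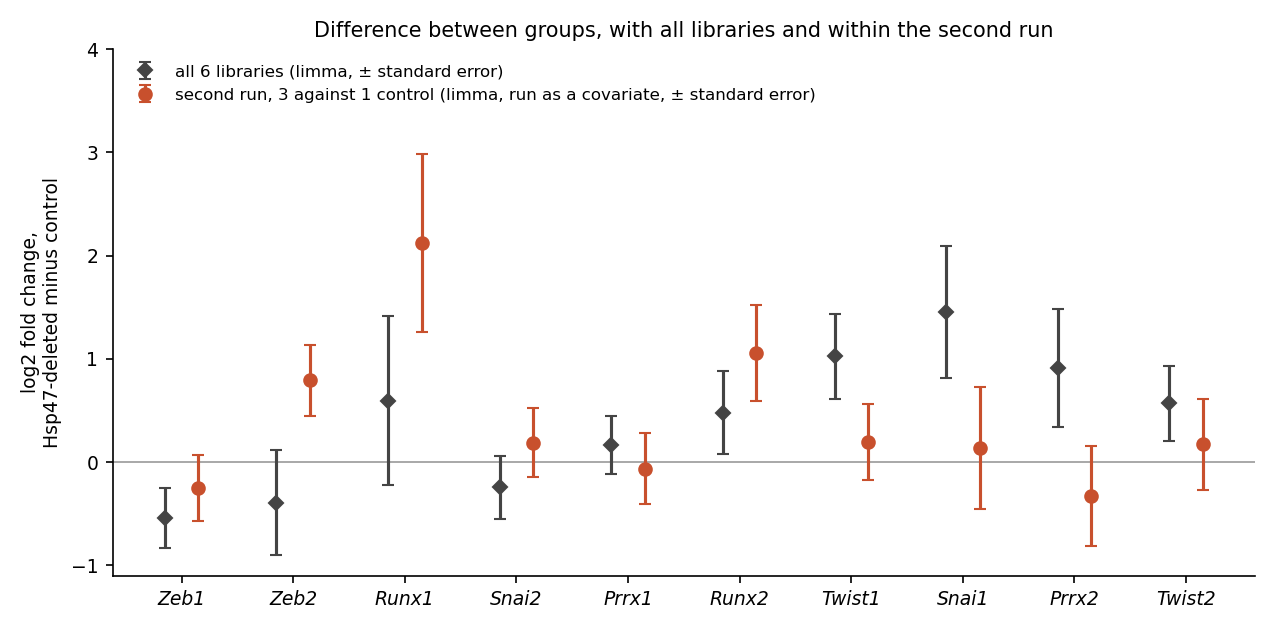
Difference between the libraries labelled Hsp47-deleted and the controls on the log2 scale, with all 6 libraries (grey diamonds, limma estimate ± standard error) and against control replicate 2 of the second run alone (red circles, limma estimate ± standard error with run as a covariate), genes in the order of mean level. *Snai1*, *Twist1* and *Prrx2* have pooled differences of 1.45, 1.02 and 0.92 and second-run differences of 0.14, 0.19 and -0.33, while *Runx1*, *Runx2* and *Zeb2* have their larger values within the second run (2.12, 1.06 and 0.79).

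Over the 10 members the median log2 difference was 0.52, and over all 15109 tested genes it was 0.35. The members' median was 0.17 without Hsp47-deleted replicate 3, 0.24 without control replicate 2 and 0.058 with GC and length trends removed. With each library centred on its median, these were 0.11 and -0.060, and against control replicate 2 they were 0.18 and 0.29. Centring moves the difference of every gene down by about the same amount, so relative to the other genes the centred values of *Snai1* (1.04) and *Twist1* (0.61) were still positive and that of *Zeb1* (-0.96) was further below 0. None of these passed the BH threshold under any of the scalings tried. At 9 of the 10 members, with *Zeb1* as the exception, the controls of different runs lay further apart than the group means did, as they did at 67.5% of all tested genes.

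The difference between the control runs went in both directions among the members. Control replicate 2 lay above the mean of control replicates 3 and 4 by 1.98 at *Snai1*, 1.86 at *Prrx2* and 1.24 at *Twist1*, and such an excess of over 1 was found at 21.7% of tested genes. It lay below them by over 1 at *Runx1* (-2.29) and *Zeb2* (-1.78), as at 13.9% of tested genes. The 3 members with upward differences of over 1 have transcripts rich in G and C (59.8% in *Snai1*, 59.3% in *Twist1* and 63.6% in *Prrx2*), and *Zeb2* (40.6%) and *Runx1* (46.4%) are poorer in them. *Prrx1*, at 43.6%, also differed upward, by 0.35, as did *Twist2* (52.6%) by 0.59. *Snai2* (42.6%), *Zeb1* (46.1%) and *Runx2* (50.3%) differed by -0.65, -0.45 and -0.87. Across the 14783 tested genes with a known transcript, the median difference between the control runs went from -0.28 in genes under 42% GC to 0.95 in genes of 60% or more. Against control replicate 2 the median difference of the Hsp47-deleted libraries was nearly level over the same GC classes, from 0.25 to 0.32. Once each library was corrected for its trends with length and GC content of the transcript, the pooled difference was 0.56 at *Snai1*, 0.14 at *Twist1* and -0.12 at *Prrx2*, while *Zeb1* was at -0.71 (limma, BH-adjusted p = 0.631). *Zeb2*, *Runx1* and *Runx2* lay below the quartiles of the genes of their own GC class, and *Snai1* and *Prrx2* above them. What set the control runs apart was not tested.

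**Figure D3:**
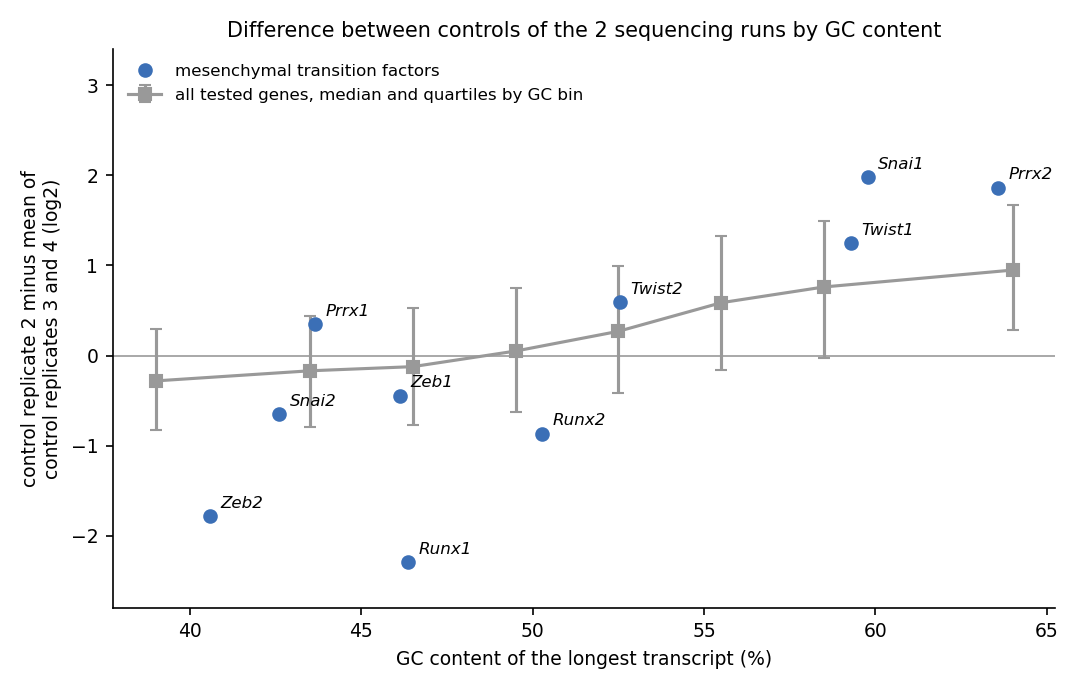
Control replicate 2 minus the mean of control replicates 3 and 4 (log2) against the GC content of the longest transcript, for the 10 factors (blue circles) and as the median and quartiles of all tested genes in classes of GC content (grey). *Snai1*, *Twist1* and *Prrx2* lie at the GC-rich end at 1.98, 1.24 and 1.86, where the medians of all genes are 0.76 and 0.95, and *Runx1* and *Zeb2* lie at -2.29 and -1.78, below the quartiles of their classes.

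The balance between the members of a family within a library does not move with library scaling, apart from the pseudocount. It was not corrected for the trend with GC content, in which some pairs differ. Transcripts of *Snai2* and *Snai1* are at 42.6% and 59.8%, and those of *Prrx1* and *Prrx2* at 43.6% and 63.6%. *Snai2* exceeded *Snai1* on the log2 scale by 4.11 and 3.69 in control replicates 3 and 4, by 1.27 in control replicate 2, and by 0.93, 0.86 and 2.19 in the Hsp47-deleted libraries. *Snai2* was thus the higher of the pair in all 6 libraries, and among the controls the gap was smaller in the second run. The mean gap was 3.03 ± 1.53 in controls and 1.33 ± 0.74 in Hsp47-deleted libraries (SD, n = 3 each; exact two-sided permutation p = 0.2), and against control replicate 2 it differed by 0.054.

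*Zeb2* and *Zeb1* stood level in control replicates 3 and 4 (*Zeb2* minus *Zeb1*, 0.021 and 0.038), and in Hsp47-deleted replicates 2 and 3 (-0.086 and -0.10). *Zeb2* was lower than *Zeb1* by 0.61 on the log2 scale in Hsp47-deleted replicate 1 and by 1.31 in control replicate 2. The group means differed by 0.15 (exact two-sided permutation p = 1), and the Hsp47-deleted mean differed from control replicate 2 by 1.04. Without control replicate 2 the group difference of the Zeb pair was -0.29. *Runx2* stood below *Runx1* in every library, and the gap was narrowest in control replicate 2 (-0.30) and Hsp47-deleted replicate 1 (-0.48), the libraries with the least *Runx1*. It was widest in Hsp47-deleted replicate 3 (-2.22). The groups overlapped (difference -0.12, exact two-sided permutation p = 0.9), and the difference was 0.36 without control replicate 2. Leaving out Hsp47-deleted replicate 3 gave 0.31.

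*Twist1* exceeded *Twist2* in all 6 libraries, with *Twist2* minus *Twist1* at -1.20 ± 0.50 in controls and -1.66 ± 0.36 in Hsp47-deleted libraries (SD, n = 3 each; exact two-sided permutation p = 0.3). *Prrx1* exceeded *Prrx2* likewise, with *Prrx2* minus *Prrx1* at -2.55 ± 0.96 and -1.80 ± 0.54 (exact two-sided permutation p = 0.4). The order within the Snail, Twist, Prrx and Runx families was thus the same in every library of both groups, and the Zeb pair was the exception. Values of every pair overlapped between the groups.

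**Figure D4:**
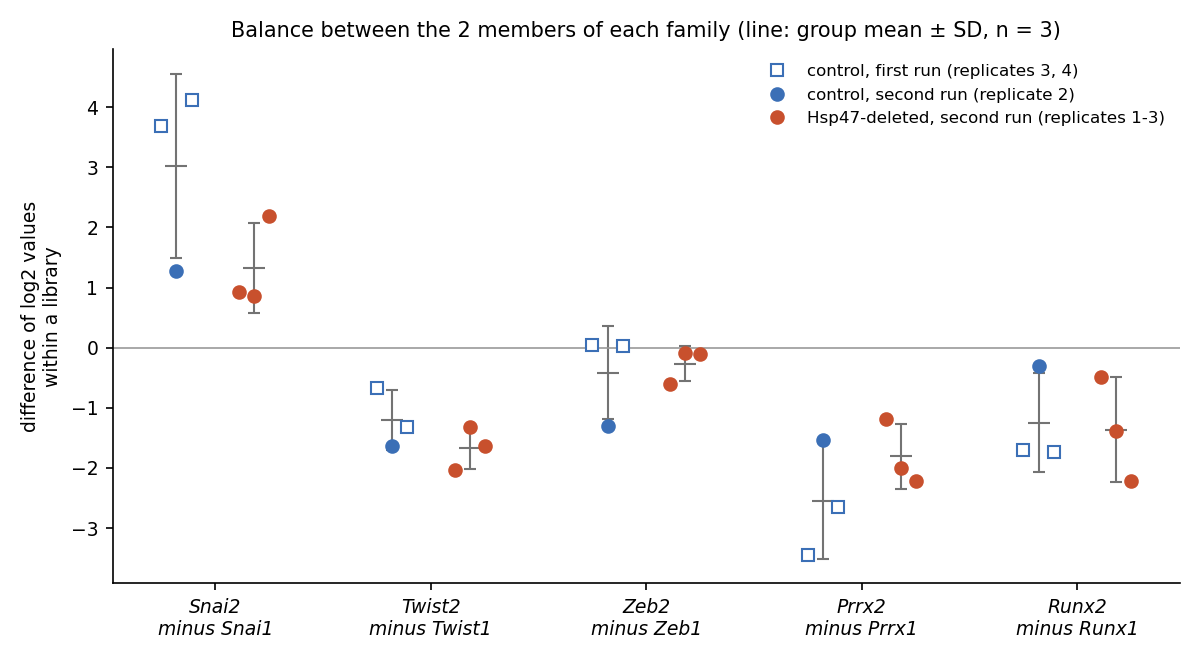
Difference in log2 value between the members of each family within a library (open squares, control replicates 3 and 4; blue circles, control replicate 2; red circles, Hsp47-deleted libraries), with the group mean ± SD (n = 3). *Snai2* minus *Snai1* is above 0 in every library, from 0.86 to 4.11, and *Twist2* minus *Twist1*, *Prrx2* minus *Prrx1* and *Runx2* minus *Runx1* are below 0 in every library.

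Among 30 tested partners and co-repressors of these factors (of 32 listed), 0 passed the BH threshold. An unadjusted limma p under 0.05 with a higher mean was found at 2, beside 14.5% of all tested genes. The median log2 difference was 0.42, near that of all genes. The smallest p belonged to *Yap1*, the Hippo pathway coactivator (log2 difference 1.05, limma, BH-adjusted p = 0.235), *Id2*, a helix-loop-helix protein that binds the E proteins with which Twist pairs (1.88, limma, BH-adjusted p = 0.286), and the deacetylase *Hdac1* (0.64, limma, BH-adjusted p = 0.337). Against control replicate 2, *Yap1* differed by 0.86, *Id2* by 0.44 and *Hdac1* by 0.32. Of 10 genes that control the turnover of Snail and Twist proteins, 0 had an unadjusted limma p under 0.05, beside 15.2% of all tested genes. Their median was 0.44. The kinases *Csnk1a1* (0.56) and *Gsk3a* (0.54) and the ubiquitin ligase subunit *Fbxl14* (0.64) had the smallest p (limma, BH-adjusted p from 0.353 to 0.405).

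Among 25 tested further factors linked to the mesenchymal state (of 30 listed), 6 had an unadjusted limma p under 0.05, all with a higher mean, and 0 passed the BH threshold. Of all tested genes, 14.5% had such a p in that direction. They were led by the Hippo factor *Tead2* (log2 difference 2.34, limma, BH-adjusted p = 0.15), *Tcf21*, a factor of the cardiac fibroblast lineage (2.09, limma, BH-adjusted p = 0.187), and the homeobox gene *Meox1* (1.93, limma, BH-adjusted p = 0.282). Within the second run *Tead2* differed by 1.33, *Tcf21* by 1.02 and *Meox1* by 0.72. With each library centred on its median, the medians of the lists of partners, further factors, turnover, epithelial, effector and skeletal genes lay between -0.053 and 0.13.

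Epithelial genes, which Snail and Zeb proteins repress, were mostly too low to test in these cells. Of 30 listed, 29 were in the table, 8 passed the filter and 13 stayed under 1 in the linear unit in every library. The E-cadherin gene *Cdh1* was between 0.10 and 0.26 on the log2 scale over the 6 libraries and *Epcam* between 0.035 and 0.36. Of the 8 tested, 0 passed the BH threshold. At an unadjusted limma p under 0.05, which 15.2% of all tested genes had, there was 1 of the 8, the mucin gene *Muc1* (log2 difference 1.01, limma, BH-adjusted p = 0.324). Next came the epithelial splicing regulator *Esrp2* (1.06) and the desmosomal gene *Dsp* (0.75), with BH-adjusted limma p of 0.391 and 0.405. *Muc1* differed from control replicate 2 by 0.61, *Esrp2* by 1.69 and *Dsp* by 0.088.

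Of 29 tested mesenchymal effector genes (of 30 listed), 6 had an unadjusted limma p under 0.05, all with a higher mean, and 9 did not overlap between the groups. Over all tested genes the shares were 14.5% for such a p in that direction and 19.8% for a lack of overlap. At the BH threshold, which 0.245% of all tested genes passed, there was 1 in the list, *Postn*. It had log2 levels of 5.86 to 6.12 over the controls and 10.2 to 10.5 over the Hsp47-deleted libraries. *Postn* encodes periostin, a matricellular protein, and its locus carries the MerCreMer cDNA in both groups. Its difference was 4.41 (standard error 0.28, limma, BH-adjusted p = 0.00337), with 4.24 within the second run. The list's median difference was 0.47, with *Mmp2* (1.07, limma, BH-adjusted p = 0.252), a gelatinase, and *Cdh2* (1.01, limma, BH-adjusted p = 0.281), the N-cadherin gene, next by p. *Mmp2* differed within that run by 0.97 and *Cdh2* by 0.85. Of 25 skeletal genes linked to *Runx2*, 12 passed the filter and 0 the BH threshold, and the median was 0.43. *Alpl* (1.00, limma, BH-adjusted p = 0.302) had a higher mean, as did the osteocalcin gene *Bglap* (1.05, limma, BH-adjusted p = 0.33), while its neighbour *Bglap3* had a lower one (-0.87, limma, BH-adjusted p = 0.345). *Bglap* and *Bglap3* are near-identical copies, so the split of reads between them is uncertain. *Alpl* differed by 0.48 within the second run, *Bglap* by 1.68 and *Bglap3* by -0.19.

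Linear values summed to 690499 to 855404 per library, and 27.2% to 34.8% of genes were listed at 0. Fibroblast markers were all tested, 12 of 12, at unlike levels, as from 3.23 (*Thy1*) to 12.4 (*Dcn*) on the log2 scale in control replicate 3. Their summed linear level was 10668 and 10268 in control replicates 3 and 4, 15971 in control replicate 2, and 16865 to 20698 in Hsp47-deleted libraries. *Postn*, the called gene, is among these markers.

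*Runx1* and *Zeb2* are also used by leukocytes, so the markers of those cells are given beside them. Of 16 leukocyte markers, 13 were tested and 12 had a higher mean in Hsp47-deleted libraries. The median log2 difference of these markers was 1.16, and 0.085 within the second run, beside 0.35 and 0.29 over all tested genes. Their summed linear level was 42.6 and 86.4 in control replicates 3 and 4, 154.6 in control replicate 2, and 155.1 to 195.7 in the Hsp47-deleted libraries. *Ptprc* (CD45) alone among them was listed at 0 in all 6, while *Lyz2* and *Tyrobp* were above 0 in every library. The 0 of *Ptprc* therefore does not show that leukocytes were absent, and its source was not tested. *Runx1* and *Zeb2* were lowest in control replicate 2, whose leukocyte sum was higher than that of the other controls. Single markers of the list differed in this. At *Itgam*, *Cd68* and *Cx3cr1* control replicate 2 was likewise the lowest library, and at *Lyz2* and *Tyrobp* it was the highest. Summed endothelial markers (10 of 10 tested) ran from 129.5 to 355.2 in controls and 253.7 to 402.8 in Hsp47-deleted libraries. Summed cardiomyocyte markers (9 of 10 tested) ran from 49.9 to 292.1 in controls and 177.1 to 267.0 in Hsp47-deleted libraries, the highest value in both lists' controls being that of replicate 2, as at *Snai1*, *Twist1* and *Prrx2*. Mural markers (8 of 8 tested) ran from 169.2 to 294.5 and from 129.4 to 194.5. The part of other cells in the levels of the factors was not tested, and in such bulk libraries fewer cells of a type and less RNA per cell cannot be told apart.

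For *Twist1* and *Snai1*, the members with the smallest p, the genes with the most similar levels over the 6 libraries were found by Pearson's r. Those of *Twist1* were *Cox4i1*, a subunit of cytochrome c oxidase (r = 0.998), *C1qtnf5* (0.998) and the folate enzyme gene *Fpgs* (0.997). Those of *Snai1* were *Smad6*, an inhibitory Smad of BMP signaling (r = 1.00), *Pccb*, a subunit of propionyl-CoA carboxylase (0.999), and *Rfx2* (0.998). *Smad6* had log2 levels of 0.80 and 1.11 in control replicates 3 and 4, 2.19 in control replicate 2 and 1.73 to 2.57 in the Hsp47-deleted libraries, the order of *Snai1*. These are the highest values among all tested genes over 6 points that share libraries and runs, and they describe a likeness of levels and no more.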

How the data were processed

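RNA was extracted from sorted EGFP+ cells, amplified (Ovation RNA-Seq System v2), made into libraries with Nextera XT and sequenced on a HiSeq2500. The authors deposited log2(value + 1) values of 28987 genes in a single table, without pooling libraries, and did not name the linear unit. The submitters' processing notes name kallisto and the mm10 build without a role or version, and the study names AltAnalyze. Columns of the authors' group means and of their own comparison (fold, p-values) were not used. Sequencing run was taken from the sample titles.

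The log2 values were used as deposited. Genes averaging at least 1 in the linear unit were fitted in R 4.3.3 by limma 3.58.1 (lmFit and eBayes, with the variance trending on the mean and no covariate), and p-values were adjusted over all tested genes by the Benjamini-Hochberg method. The fit was tested on simulated data with the spread of these libraries. It called 1 of 50 genes changed by 1 on the log2 scale and 21 of 50 changed by 2. At changes of 3 and 4 it called 48 and 49 of 50. Changes of about 1 were thus rarely called in the simulated data. Those libraries were drawn independently, without a difference between sequencing runs, so the rates do not cover that part of the design. Single genes and within-family differences were compared by exact permutation of the libraries. Reads were estimated for the 3 members with 1 annotated transcript from steps in the low values of 5017 single-transcript genes. Of the 645 to 765 lowest values used per library, 60.5% to 67.4% lay within 0.1 of a whole read, so the estimates are approximate and total depth is unknown. Coordinates, lengths and GC content came from GENCODE M21 (GRCm38), in which 27458 genes had an entry.

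The members, the lists and the tests were chosen with earlier results of these data known. The text names all members, *Serpinh1* and *Postn*, in each list the called genes and the 3 genes with the smallest p, and for the 2 members with the smallest p the 3 genes with the highest Pearson's r. *Cdh1*, *Epcam* and *Ptprc* were named after their values were seen. The alternatives were sequencing run as a covariate, the second run alone, a block for replicate number, a filter at 5 or none, other pseudocounts (0.1 and 5), centring each library on its median, quantile normalization, robust or untrended limma, and leaving out each library. Removal of GC content and length trends (lowess, span 0.3) was added after the data were seen. No promoter is shown for *Snai2* and *Zeb1*.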

Additional observations from a re-analysis of the deposited data

How the results depend on the processing

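Of 179 values of the 10 members under the alternatives, 154 kept the direction and the side of the threshold, 11 turned direction and 4 were newly called. The remaining 10 were the differences within the second run alone, which have no p and equal those with run as a covariate. *Snai1*, *Twist1*, *Twist2*, *Zeb1* and *Runx2* kept their direction under every alternative. Directions turned with sequencing run as a covariate at *Snai2* (0.19), *Zeb2* (0.79), *Prrx1* (-0.063) and *Prrx2* (-0.33), with quantile normalization (-0.21) and centring (-0.25) at *Prrx1*, and with GC and length trends removed at *Prrx2* (-0.12). Leaving out 1 library, *Zeb2* ranged from -0.99 (without control replicate 2) to 0.0017 (without control replicate 4), and *Runx1* from -0.17 (without control replicate 2) to 1.24. The family differences within the second run were 0.054 (*Snai2* minus *Snai1*), -0.021 (*Twist2* minus *Twist1*), 1.04 (*Zeb2* minus *Zeb1*), -0.26 (*Prrx2* minus *Prrx1*) and -1.06 (*Runx2* minus *Runx1*). With 1 library left out, *Zeb2* minus *Zeb1* ranged from -0.29 (without control replicate 2) to 0.38, and *Runx2* minus *Runx1* from -0.56 to 0.36 (without control replicate 2).

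The number of members called was 0, and 0 to 4 with 1 library left out, the 4 coming without control replicate 2, where run and label coincide. Over all genes, 37 were called, against 16 with a pseudocount of 0.1, 17 with quantile normalization, 18 with centring, 15 with GC and length trends removed, and 8 to 2768 with 1 library left out (2768 without control replicate 2). In the other lists 1 gene was called, and 1 to 23 with 1 library left out. Replicate numbers 2 and 3 occur in both groups and mark nothing shared in the labels. Deviations from the group means correlated at 0.16 and 0.23 for them, and a fit with the replicate number as a block called 0 genes over all and 0 in the lists, with *Zeb2* at 0.12. *Twist2* averaged under 5 and has no value under that filter. The cause of these shifts was not tested. With 3 libraries a group, an exact permutation p cannot go under 0.10, and the second run holds 1 control.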
